A study of Mus musculus with 6 samples.

Results

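The autophagy machinery is described here as 39 genes, ordered by the step at which their proteins act, and all 39 were found by symbol among the 55335 rows of the gene count table. They comprise 5 genes of initiation, 12 of nucleation and membrane supply, 11 of the ATG conjugation systems, 5 of the LC3 and GABARAP proteins and 6 of cargo receptors. RNA-seq counts came from 6 libraries of mouse bone marrow-derived macrophages (BMDMs), primary cells cultured with 20 ng/mL of macrophage colony-stimulating factor. On day 5 the cells of both groups received PAC-CM, medium conditioned by injured acinar cells of the pancreas. The PAC-CM group had no other treatment (3 libraries), and the kinsenoside group also received 400 µM kinsenoside, a plant glycoside (3 libraries). No genotype, strain, sex or age is given in the labels, and neither is the length of the exposure. The series concerns what kinsenoside does to macrophages in acute pancreatitis. Without a group that lacks conditioned medium the comparison is of PAC-CM with and without kinsenoside.

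Macroautophagy encloses cytoplasm in a double membrane, the autophagosome, and delivers it to the lysosome. The ULK1 kinase complex starts the process, a class III phosphatidylinositol 3-kinase complex marks the site, and lipid transfer and scrambling proteins supply the membrane. A pair of ubiquitin-like systems then couples ATG12 to ATG5 and LC3 or GABARAP proteins to lipid, and receptors such as p62 bind cargo to these proteins. In macrophages the pathway also serves the clearance of microbes and restrains inflammasome activity. Transcript levels do not measure the flow of cargo through the pathway.

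Transcripts of autophagy genes differed little between the groups, and none of the 39 passed the test. All 39 had enough counts to be tested. By the quasi-likelihood test of edgeR, adjusted over all genes by the Benjamini-Hochberg method, 0 of 39 had an adjusted p under 0.05, where 0.511% of the 13901 genes tested did (0.209% higher and 0.302% lower with kinsenoside). At an unadjusted p under 0.05 there were 9 members, or 23.1%, against 14.9% of all genes tested. Of these 9, the estimate was higher with kinsenoside for 8 (20.5% of members against 6.74% of genes tested) and lower for 1 (2.56% against 8.19%). The shares over all genes tested were not matched to the members in abundance. limma-voom also called 0 members, where it called 0.281% of all genes. DESeq2 called 1 of the 39 (2.56%), Atg12, where it called 3.60% of the 13625 genes to which it gave an adjusted p. The 95% interval of the fold change lay within 2-fold in either direction for 38 of the 39 genes and within 1.5-fold for 37. The interval of Gabarapl1 went past both limits, and that of Uvrag past 1.5-fold. The unadjusted p was under 0.05 in all 15 alternative fits for Atg12, Bnip3l, Gabarap and Nbr1, in 14 for Atg16l1 and Sqstm1, in 12 for Map1lc3b, in 11 for Uvrag and in 10 for Atg13.

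The estimates leaned to the kinsenoside side. They were above 0 for 27 of the 39 members (69.2%), and below 0 for 12, where 48.9% and 51.1% of all genes tested were, with a median log2 fold change of 0.09 against -0.0056 over all genes tested. With scaling by library totals alone, 23 members were above 0 and the medians were 0.041 for members and -0.05 for all genes, so the distance between the medians stayed at 0.09. Without kinsenoside replicate 1, which stood apart from the other libraries on the second principal component, 26 were above 0 and the median was 0.074. The median was 0.16 for the LC3 and GABARAP genes, 0.14 for cargo receptors, 0.10 for initiation, 0.046 for conjugation and 0.024 for nucleation and membrane supply. Under library totals alone initiation was at 0.058, conjugation at 0.0017 and nucleation and membrane supply at -0.020. Initiation was at 0.016 without PAC-CM replicate 2 and at 0.16 without PAC-CM replicate 1. Conjugation was at 0.014 without PAC-CM replicate 1 and at 0.13 without PAC-CM replicate 3, and nucleation and membrane supply ranged from 0.0005 to 0.050 with 1 library left out, so the order of the steps was not stable. These medians describe the lists and were not tested. Relative to each gene's mean, the median log2 CPM of all members was -0.04, -0.04 and -0.06 in the PAC-CM libraries, replicates 1 to 3, and 0.04, 0.01 and 0.05 in those with kinsenoside (CPM is a gene's count divided by the library total, per 1e6, here with totals scaled by TMM factors). The 2 groups thus did not overlap in this median. Taken over all genes tested, the median did not overlap either, with kinsenoside on the lower side. It ranged from 0.0048 to 0.011 without kinsenoside, against -0.0014 to 0.0031 with it. Separation of such a median is therefore not particular to the members, although theirs was wider and of the other sign. Taken by step, the groups overlapped for initiation (-0.042, 0.0066 and 0.035 in PAC-CM, 0.089, 0.012 and 0.044 with kinsenoside). They also overlapped for nucleation and membrane supply (-0.047, -0.0065 and 0.0004, then 0.039, -0.026 and 0.014), and did not for the other steps. The groups nearly met in the plain sum of CPM over members. That sum was 4029, 3927 and 4068 CPM in the PAC-CM libraries and 4069, 4339 and 4382 CPM with kinsenoside.

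**Figure D1:**
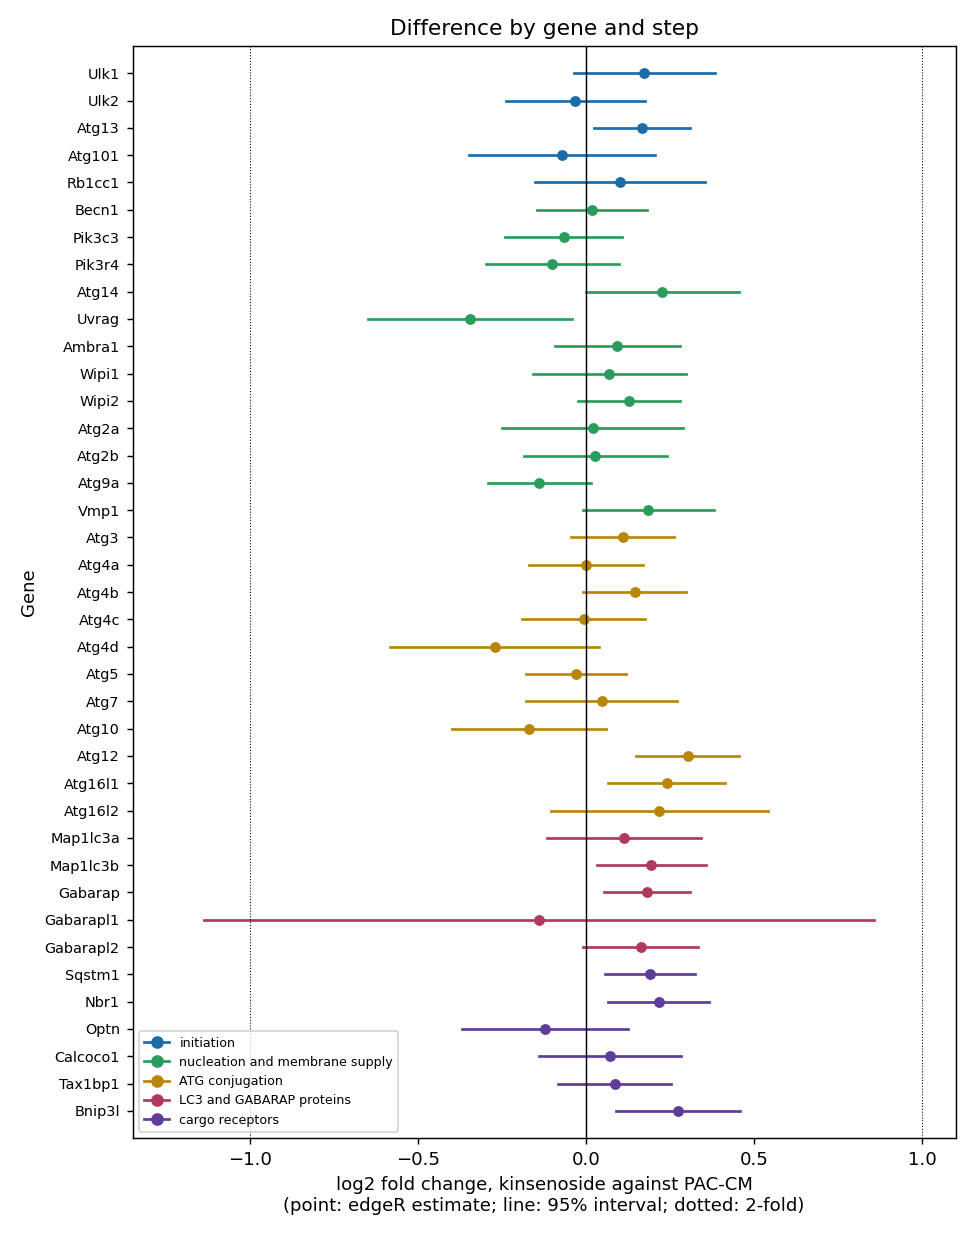
The x axis gives the log2 fold change of kinsenoside against PAC-CM, with the edgeR estimate as a point and its 95% interval as a line, for each of 39 genes on the y axis, coloured by step; dotted lines mark 2-fold. Of the 39 estimates, 27 lie above 0, and the interval of Gabarapl1 (-1.14 to 0.86) is the single one that crosses a 2-fold line.

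Total counts ranged from 41125059 to 47461702 per library. Over all genes, 29 were called higher and 42 lower with kinsenoside, or 25 and 63 when scaled by library totals alone. The labels do not say whether replicates are separate cultures or animals, and p-values then measure only how these samples vary, which may be technical. On the first principal component of all genes tested the groups did not overlap. PAC-CM libraries were at -25.7, -21.5 and -11.9, and kinsenoside libraries at 4.29, 24.1 and 30.7. Kinsenoside replicate 1 stood apart on the second component (-39.3, with the others between -6.13 and 19.7). Markers of macrophages were abundant. The 10 symbols, which match 11 gene entries because Itgam has 2, summed to between 22061 and 24424 CPM in PAC-CM libraries. With kinsenoside they summed to between 23993 and 26847 CPM. Of these markers 1, the mannose receptor gene Mrc1, was called (adjusted p = 0.0316, higher). The 10 acinar cell markers, none of which was at 0 in all libraries, summed to between 6.66 and 7.52 CPM and between 5.42 and 7.85 CPM. Neutrophil markers (8 genes) reached at most 42.8 CPM in sum, and those of dendritic, T and natural killer, B, fibroblast, and mast and basophil cells at most 9.48 CPM. In bulk RNA, fewer cells of a type and less RNA per cell cannot be told apart.

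Levels between genes were compared per kilobase of annotated exon, on the scale of CPM per kb. Sqstm1, which encodes the receptor p62, had the highest level, with a mean of 344 CPM per kb in PAC-CM and 380.4 with kinsenoside. Gabarap, a ubiquitin-like protein of the autophagosome membrane, followed at 239 and 262 CPM per kb, and the ranges of these 2 genes over the 6 libraries (335 to 398 and 236 to 269) did not meet. Next came Tax1bp1 at 75.2 and 77.4, Gabarapl1 at 57.1 and 50.2, Vmp1 at 50.6 and 55.8 and Bnip3l at 45.1 and 52.9. Tax1bp1, with a range of 71.0 to 82.7, lay above these last 3, whose ranges overlapped one another. At the other end Atg16l2 had 0.420 and 0.474 CPM per kb, Rb1cc1 1.29 and 1.35, and Atg2b 1.41 and 1.40, and the last 2 overlapped. Initiation genes lay between 1.08 and 9.63 CPM per kb in any library. Since the length counts every annotated exon, genes with long alternative ends are understated on this scale.

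**Figure D2:**
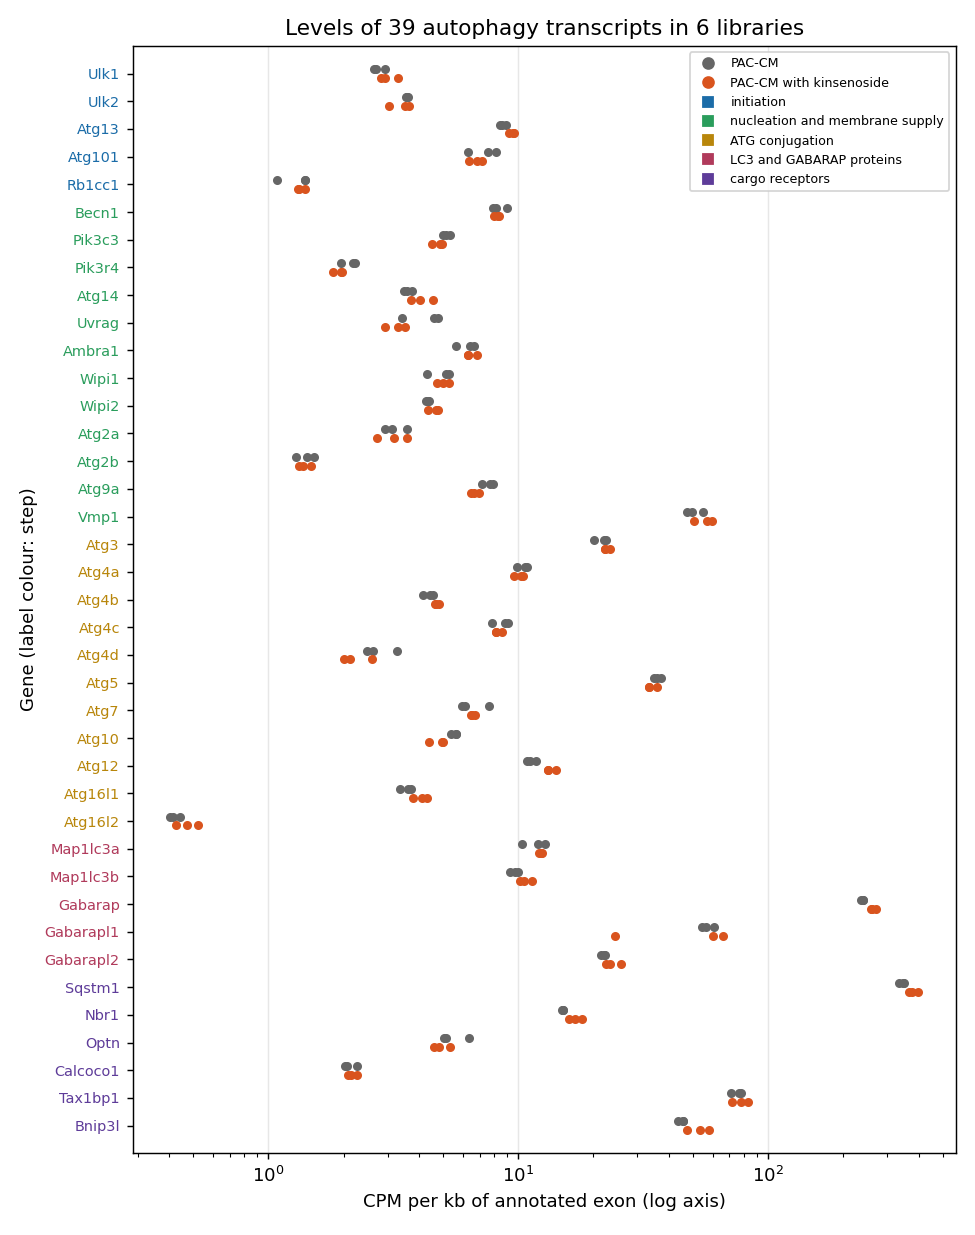
The x axis gives CPM per kb of annotated exon on a log scale for 39 genes on the y axis, with 1 point per library, grey for PAC-CM and orange for kinsenoside; label colours mark the step. Sqstm1 (335 to 398) and Gabarap (236 to 269) lie to the right of all other genes, and Atg16l2 (0.404 to 0.523) lies to the left of all others.

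At initiation, of the 5 genes of the ULK1 complex and its relatives, Atg13 had the smallest p, and none passed. Atg13, the regulatory subunit that binds ULK1 (ENSMUSG00000027244, chromosome 2, 91674618 to 91710576, GRCm38), was at 39.2, 37.7 and 37.1 CPM in the PAC-CM libraries, replicates 1 to 3, and at 40.2, 41.8 and 42.0 CPM in those with kinsenoside, in the same order of replicates used throughout. Each kinsenoside library was above each PAC-CM library, with a gap of 1.04 CPM between the groups. Its log2 fold change was 0.17 (SE 0.0626, with edgeR adjusted p = 0.268), or 1.12-fold, and Atg13 was the most abundant gene of this step in CPM. Ulk1, the kinase itself, was at 17.5, 19.0 and 17.1 CPM and then at 21.4, 19.0 and 18.3 CPM, with overlapping groups and a log2 fold change of 0.17 (adjusted p = 0.422). Its paralog Ulk2 had -0.03, from 21.5 ± 0.268 to 20.4 ± 1.89 CPM (SD, n = 3 per group). Per kilobase, Ulk1 made up 43.4% ± 1.39 of the ULK pair in PAC-CM and 46.96% ± 2.26 with kinsenoside (SD, n = 3), and the shares overlapped between groups. Rb1cc1, which encodes the scaffold FIP200, had 0.10, and Atg101, a partner of ATG13, had -0.07.

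At nucleation, the class III phosphatidylinositol 3-kinase complex gave near-zero estimates for its core. Becn1, the Beclin 1 scaffold, was at 57.7, 56.0 and 63.8 CPM in PAC-CM and at 56.6, 58.6 and 59.3 CPM with kinsenoside, a log2 fold change of 0.019 with a 95% interval of -0.15 to 0.18. The highest and the lowest value of Becn1 were both in PAC-CM libraries. Its exons share 43.9% of their length with Cntd1 on the other strand, which was at 0.172 and 0.0318 CPM in the 2 groups. Pik3c3, the lipid kinase VPS34, was at 23.8, 22.3 and 22.9 CPM and then at 20.2, 22.0 and 21.7 CPM. Its groups did not overlap in CPM, but they did after TMM scaling, and the log2 fold change was -0.07 (SE 0.0763, with adjusted p = 0.740). Pik3r4, the kinase's regulatory subunit VPS15, had -0.10.

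The 2 alternative partners of Beclin 1 had estimates of opposite sign. Atg14, which directs the complex to autophagosome formation, was at 16.2, 15.1 and 15.5 CPM in PAC-CM and at 17.4, 16.0 and 19.6 CPM with kinsenoside, with a log2 fold change of 0.23 (adjusted p = 0.336). Uvrag, which directs it to endosomes and autophagosome maturation (ENSMUSG00000035354, chromosome 7, 98885021 to 99141141), was at 31.0, 43.1 and 41.6 CPM and then at 29.7, 31.9 and 26.6 CPM. PAC-CM replicate 1 lay inside the kinsenoside range, so the groups overlapped. Uvrag had a log2 fold change of -0.35 (SE 0.132, with adjusted p = 0.280), the lowest estimate of the 39. It was the single member on the lower side with an unadjusted p under 0.05. The unadjusted p was above 0.05 without PAC-CM replicate 2 (estimate -0.26), PAC-CM replicate 3 (-0.28), kinsenoside replicate 1 (-0.35) or kinsenoside replicate 3 (-0.28). Without PAC-CM replicate 1 the estimate was -0.48. The difference between Atg14 and Uvrag was not itself tested. Ambra1, a Beclin 1 regulator, had 0.09.

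Among genes that supply the membrane, Vmp1 was the most abundant in CPM. Vmp1, a lipid scramblase of the endoplasmic reticulum (ENSMUSG00000018171, chromosome 11, 86583865 to 86683836), was at 182, 192 and 212 CPM in PAC-CM and at 196, 220.0 and 231 CPM with kinsenoside. Kinsenoside replicate 1 lay within the PAC-CM range. Its log2 fold change was 0.19 (SE 0.0856, with adjusted p = 0.358). The annotated exons of Vmp1 include 92 bases of the microRNA gene Mir21a on the same strand, which itself was at 0.0223 and 0.0237 CPM in the 2 groups. Atg9a, the scramblase of the vesicles that seed the membrane, was at 45.5, 44.4 and 41.4 CPM and then at 40.1, 38.2 and 37.4 CPM. All 3 kinsenoside libraries were below all 3 PAC-CM libraries, also after TMM scaling, at a log2 fold change of -0.14 (SE 0.0675, with adjusted p = 0.379). Exons of Atg9a share 1832 bases, 31.8% of its length, with Gm29253 on the same strand, which was at 0.145 and 0.104 CPM. How reads of this stretch were counted is not known. The phosphoinositide-binding Wipi2 had 0.13 and its paralog Wipi1 0.07. The lipid transfer genes Atg2a and Atg2b had 0.02 and 0.028, and both became negative under library totals (-0.024 and -0.017).

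Among the 11 genes of ATG conjugation, the 2 largest positive estimates belonged to Atg12 and Atg16l1, whose proteins act in the same complex. Atg12, the ubiquitin-like protein joined to ATG5 (ENSMUSG00000032905), was at 83.4, 86.1 and 91.0 CPM in PAC-CM and at 102, 101 and 109 CPM with kinsenoside. All 3 kinsenoside libraries were above all 3 PAC-CM libraries, with a gap of 10.1 CPM between the groups. Atg12 had a log2 fold change of 0.30 (SE 0.0673, with adjusted p = 0.1004), or 1.23-fold, the highest estimate of the 39. DESeq2 called it (adjusted p = 0.0148), and over all 15 alternatives its adjusted p ranged from 0.0148 to 0.314 with a log2 fold change between 0.26 and 0.34. Atg16l1, which carries the conjugate to the membrane (ENSMUSG00000026289, chromosome 1, 87755870 to 87792428), was at 32.4, 35.9 and 34.7 CPM and then at 41.6, 39.6 and 36.6 CPM, again without overlap. It had a log2 fold change of 0.24 (SE 0.0760, with adjusted p = 0.203). Atg5, whose protein is joined to ATG12 in the conjugate, was at 84.8 ± 2.61 and 80.5 ± 3.42 CPM (SD, n = 3 per group), a log2 fold change of -0.03. The estimates of the 3 partners thus differed in sign, and that difference was not tested.

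The enzymes of the 2 conjugation systems gave small estimates of both signs. Atg7, the E1-like enzyme of both systems, had 0.05 and Atg3, the E2-like enzyme that lipidates LC3, had 0.11. Atg10, the E2-like enzyme of the ATG12 branch, was at 9.66, 9.27 and 9.70 CPM in PAC-CM and at 7.57, 8.48 and 8.61 CPM with kinsenoside. These groups did not overlap, at a log2 fold change of -0.17 (SE 0.1005, with adjusted p = 0.476). Thus Atg12 and Atg10, which act in the same branch, stood on opposite sides of 0. Atg16l2, a paralog of Atg16l1, was the least abundant member at 3.56 ± 0.162 and 4.01 ± 0.406 CPM (SD, n = 3) and had 0.22 (adjusted p = 0.523). Of the ATG16L pair it made up 10.6% and 10.5% per kilobase.

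The ATG4 proteases trim LC3 and GABARAP precursors and also cut them from lipid. Atg4b, the main protease for LC3, was at 34.5, 37.8 and 36.8 CPM and then at 40.1, 38.7 and 38.3 CPM, without overlap, at a log2 fold change of 0.15 (SE 0.0671, with adjusted p = 0.358). Atg4d was at 19.1, 23.7 and 18.1 CPM and then at 18.9, 15.5 and 14.5 CPM, with overlap, at -0.27 (adjusted p = 0.396). Exons of Atg4d share 1405 bases, 19.3% of its length, with Kri1 on the other strand, which was at 17.1 and 16.4 CPM, so reads of this stretch cannot be assigned without strand. Atg4a and Atg4c had 0.0005 and -0.007. As a share of the ATG4 family per kilobase, Atg4b was at 16.8% ± 0.796 in PAC-CM and 18.6% ± 0.251 with kinsenoside (SD, n = 3), and its lowest kinsenoside share (18.3%) was above its highest PAC-CM share (17.4%). Such shares were not computed over all genes, and the difference was not tested. Atg4b has 8278 bases of annotated exon, against 2661 for Atg4a and 3351 for Atg4c, which lowers its share. In CPM its PAC-CM mean, 36.4, was above those of Atg4a (27.8), Atg4c (28.9) and Atg4d (20.3).

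Promoter windows were searched for the E-box core CACGTG, letters that TFEB and related factors bind. RefSeq promoter windows of GRCm38.p6, from 250 bases before to 50 after a start, were matched by symbol for 32 of the 39 genes, and 4 of them held CACGTG, namely the conjugation genes Atg3, Atg5 and Atg7 and the nucleation gene Atg14. That is 12.5% of the members matched, against 8.09% of 27025 genes with a window. The motif reads the same on both strands, and a match is a description and not a binding site. No match says only that these letters are not in the window. Stretches upstream of the RefSeq starts used for Atg3 and Atg7 are shown, because these 2 enzymes pass LC3 to lipid one after the other. They are printed 5′ to 3′ on the plus strand with the motif in capitals. Atg3 has 2 copies, at chr16:45158689-45158784. The Atg7 stretch, chr6:114670907-114671026, lies within the annotated gene between exons. It is upstream of the start that RefSeq gives, but not of the annotated gene start at 114643097.
Atg3: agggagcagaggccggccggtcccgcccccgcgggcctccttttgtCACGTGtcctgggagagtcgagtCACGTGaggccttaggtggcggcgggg
Atg7: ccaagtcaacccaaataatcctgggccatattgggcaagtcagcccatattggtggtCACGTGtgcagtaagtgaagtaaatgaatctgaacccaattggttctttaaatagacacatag
The 4 genes with the motif had log2 fold changes of 0.11 (Atg3), -0.03 (Atg5), 0.05 (Atg7) and 0.23 (Atg14), and none passed. Tfeb itself, named for the motif and chosen after its values were seen, was at 24.2, 20.5 and 21.4 CPM in PAC-CM and at 22.7, 21.8 and 19.6 CPM with kinsenoside (adjusted p = 0.999).

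Estimates were above 0 for 4 of the 5 LC3 and GABARAP genes, and 3 of the 5 had every kinsenoside library above every PAC-CM library in CPM, as did 6.86% of all genes tested. Gabarap (ENSMUSG00000018567, chromosome 11, 69991143 to 69994951) was at 441, 443 and 436 CPM in PAC-CM and at 479, 476 and 497 CPM with kinsenoside. The PAC-CM libraries lay close together, and the gap to the lowest kinsenoside library was 32.6 CPM. Gabarap had a log2 fold change of 0.18 (SE 0.0560, with adjusted p = 0.192). Map1lc3b, the LC3B gene whose product is the usual marker of autophagosomes, was at 69.4, 74.9 and 73.1 CPM and then at 85.7, 76.3 and 79.1 CPM, at 0.19 (SE 0.0711, adjusted p = 0.257). Gabarapl2 (GATE-16) was at 51.3, 51.9 and 49.9 CPM and then at 54.1, 52.0 and 60.1 CPM, where the gap between the groups was 0.0971 CPM, at 0.16 (SE 0.0752, adjusted p = 0.360). Map1lc3a, the LC3A gene, had 0.11, from 13.9 ± 1.47 to 14.5 ± 0.179 CPM (SD, n = 3).

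Gabarapl1 was the member with the widest spread, and 1 library decided its estimate; it was described here after its values were seen. It was at 122, 109 and 113 CPM in PAC-CM and at 49.2, 133 and 121 CPM with kinsenoside. In counts, kinsenoside replicate 1 had 2139, where the other 5 libraries had between 4994 and 5603. The log2 fold change was -0.14 (SE 0.387, with adjusted p = 0.913) with that library and 0.19 (adjusted p = 0.271) without it. Among 9744 genes with a highest count of at least 200, 21 had kinsenoside replicate 1 at least 2-fold below every other library, and Gabarapl1 was the only autophagy member among them. The other libraries each had between 14 and 23 such genes and no member. Kinsenoside replicate 1 is also the library that stood apart on the second component, and the part of this in the low value was not tested. The neighbouring antisense transcript 1700101I11Rik, which shares 28.3% of the exon length of Gabarapl1, was at 0.228 and 0.127 CPM in the 2 groups.

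The same library stood apart in the make-up of the family. This restates its low Gabarapl1 value, because a lower share of 1 gene raises the shares of the others. Gabarap itself was at 479 CPM in that library, against 476 and 497 CPM in kinsenoside replicates 2 and 3. Per kilobase, Gabarap made up 69.5%, 70.9% and 70.7% of the summed LC3 and GABARAP level in PAC-CM and 78.5%, 69.9% and 71.2% with kinsenoside. Gabarapl1 made up 17.7%, 16.0% and 16.8% and then 7.39%, 17.9% and 15.9%. Kinsenoside replicates 2 and 3 thus had shares of both genes close to those of the PAC-CM libraries. Gabarapl2 held between 6.06% and 7.03% in any library. On this scale both LC3 genes were minor parts, Map1lc3a between 3.11% and 3.73% and Map1lc3b between 2.68% and 3.45%. The scale divides Map1lc3b by 7517 bases of annotated exon and Map1lc3a by 1181, so their order depends on the annotated length. In CPM, Map1lc3b was at means of 72.5 in PAC-CM and 80.4 with kinsenoside, and Map1lc3a at 13.9 and 14.5.

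**Figure D3:**
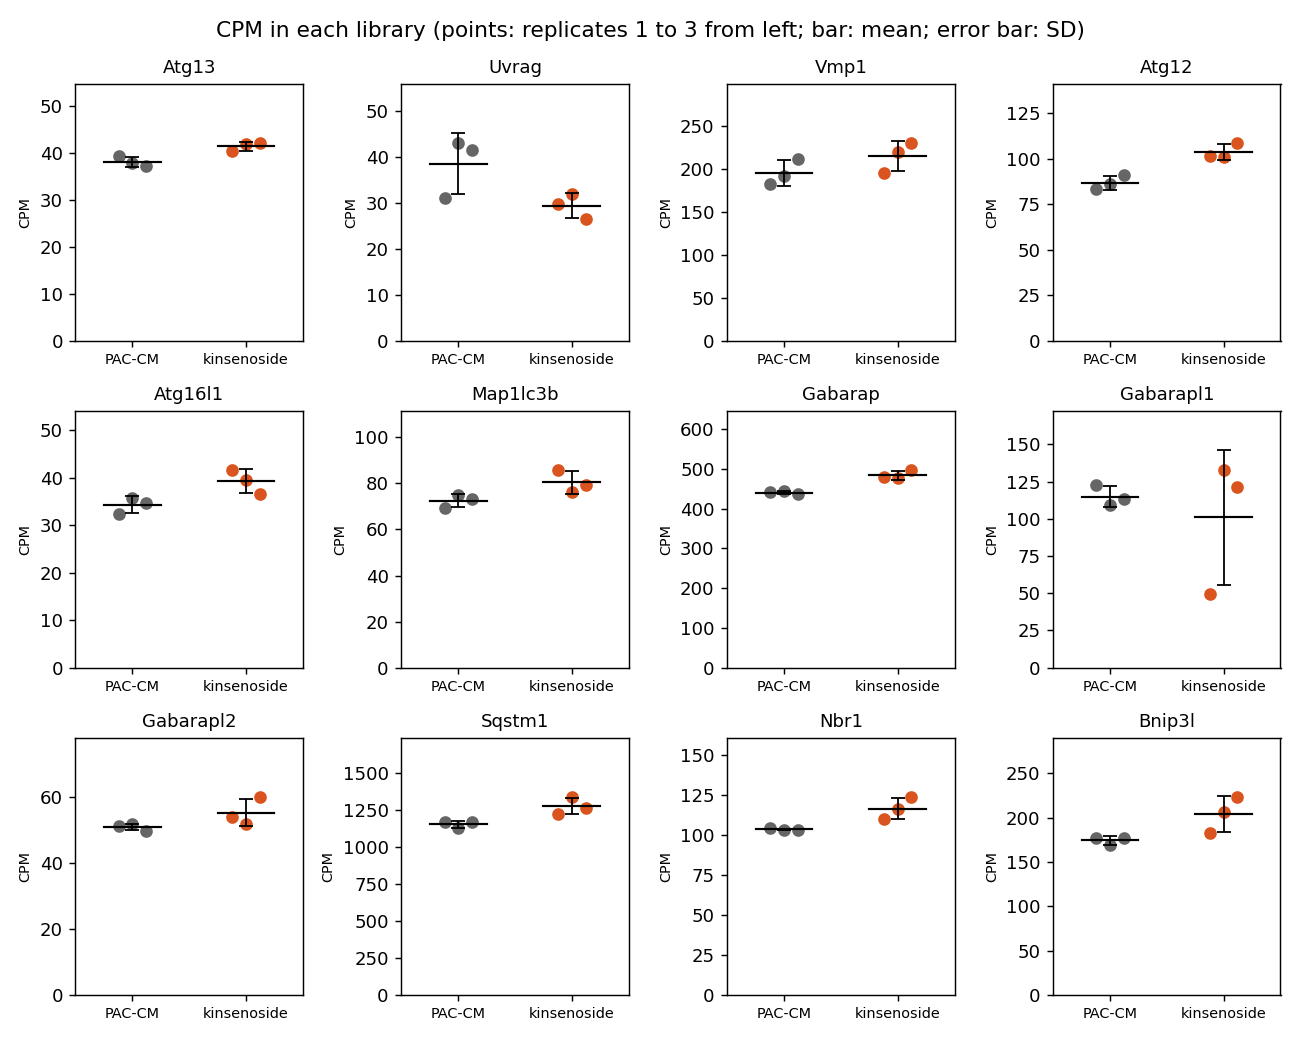
Each panel gives the CPM of 1 gene (y axis, starting at 0) in the PAC-CM and kinsenoside libraries (x axis), with replicates 1 to 3 from left to right, the mean as a bar and the SD as the error bar. The low point of Gabarapl1 is kinsenoside replicate 1 at 49.2 CPM. The groups of Gabarapl1, Uvrag and Vmp1 overlap, while those of the other 9 genes shown do not. The panels are a selection: of all 39 members, 10 had every kinsenoside library above every PAC-CM library and 3 had every one below. Over all genes tested these shares were 6.86% and 15.7%. The 3 members below, Pik3c3, Atg9a and Atg10, are not shown.

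For 3 of the 6 cargo receptors, all kinsenoside libraries lay above all PAC-CM libraries in CPM, as they did for 6.86% of all genes tested. Sqstm1 (ENSMUSG00000015837, chromosome 11, 50199366 to 50210827) was at 1170.4, 1126 and 1166 CPM in PAC-CM and at 1227, 1337 and 1266 CPM with kinsenoside. It had a log2 fold change of 0.19 (SE 0.0587, with adjusted p = 0.195), or 1.14-fold. Sqstm1 alone held between 28.7% and 30.8% of the summed CPM of all members in any library. Nbr1, a receptor related to p62, was at 104, 103 and 103 CPM and then at 110.2, 116 and 124 CPM. The PAC-CM libraries lay close together, and the log2 fold change was 0.22 (SE 0.0658, with adjusted p = 0.188).

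Bnip3l, which encodes the mitophagy receptor NIX (ENSMUSG00000022051, chromosome 14, 66985239 to 67008877), was at 177, 169 and 177 CPM in PAC-CM and at 183, 207 and 223 CPM with kinsenoside. Kinsenoside replicate 1 was the nearest to the PAC-CM libraries, 5.83 CPM above the highest. The log2 fold change was 0.27 (SE 0.0812, with adjusted p = 0.182), and 0.35 (adjusted p = 0.0747) when kinsenoside replicate 1 was left out. Bnip3l had an adjusted p that ranged over the 15 alternatives from 0.0747 to 0.437. The other receptor genes had overlapping groups. Tax1bp1, an abundant ubiquitin receptor, was at 763, 709 and 782 CPM and then at 716, 776 and 827 CPM, at 0.09 (adjusted p = 0.645). Optn, the receptor optineurin, had -0.12, from 20.7 ± 2.69 to 18.4 ± 1.37 CPM, and Calcoco1 had 0.07, from 12.1 ± 0.793 to 12.3 ± 0.523 CPM (SD, n = 3 per group).

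Counted over all steps, 10 of the 39 members (25.6%) had every kinsenoside library above every PAC-CM library in CPM, where 6.86% of genes tested did, and 3 (7.69%) had every one below, where 15.7% did. The 10 were Atg13, Atg4b, Atg12, Atg16l1, Map1lc3b, Gabarap, Gabarapl2, Sqstm1, Nbr1 and Bnip3l, and the 3 were Pik3c3, Atg9a and Atg10. After TMM scaling there were 13 above (33.3%, against 10.4% of genes) and 2 below (5.13%, against 11.4%), with Atg14, Wipi2 and Atg3 added above and Pik3c3 lost below. Genes are not independent replicates, and these shares are a description of 6 libraries.

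**Figure D4:**
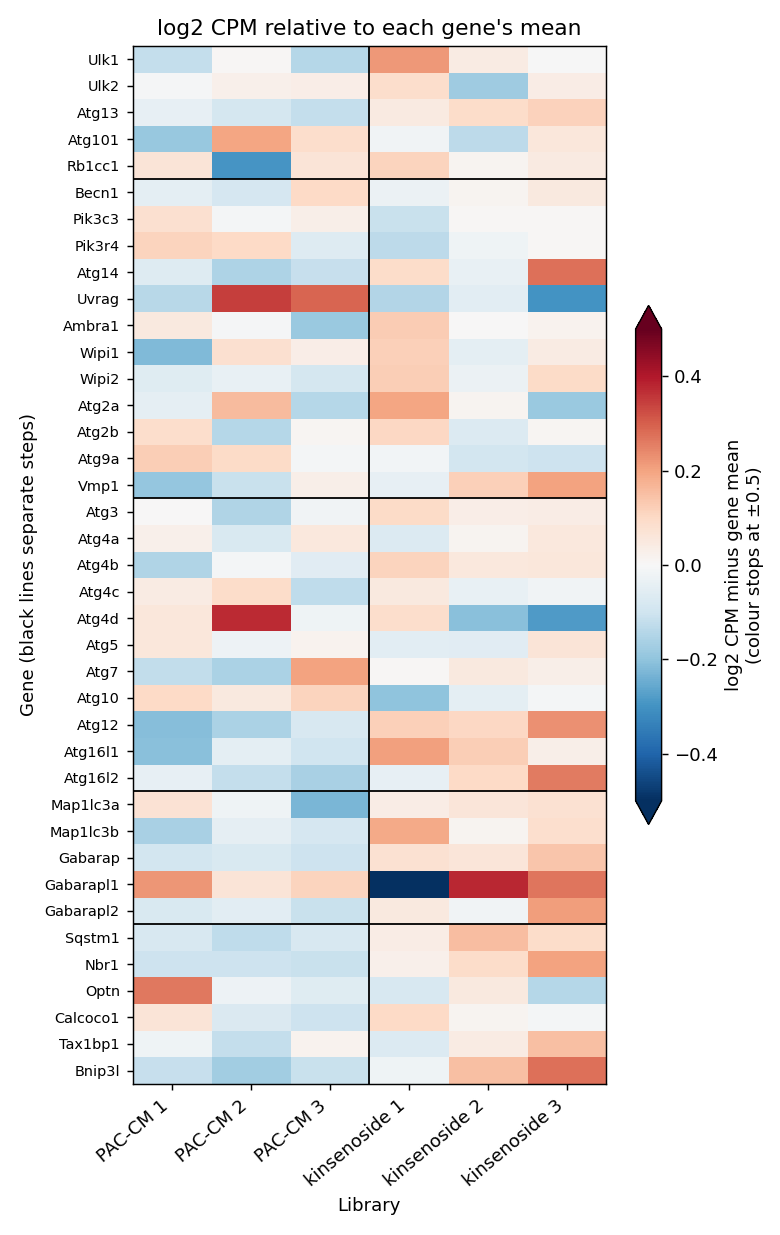
Colour gives log2 CPM of each gene (rows, ordered by step with black lines between steps) in each library (columns) minus the gene's mean over the 6 libraries, and it stops at ±0.5. The rows of Atg12, Gabarap, Sqstm1 and Nbr1 are blue in all 3 PAC-CM columns and red in all 3 kinsenoside columns, and the darkest blue cell is Gabarapl1 in kinsenoside replicate 1.

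Genes around the core machinery were taken from 5 further lists, and edgeR called 0 genes in each of them, where 0.511% of all genes were called. limma-voom also called 0 in each, and the calls of DESeq2 are given at the end. Of 24 genes of mTORC1 and AMPK control, 1 had an unadjusted p under 0.05 on the higher side and 1 on the lower, with a median of 0.0021. Each is 4.17% of the list, below the 6.74% higher and 8.19% lower over all genes tested. Rragd, a Rag GTPase that recruits mTORC1 to the lysosome, was at 19.6, 13.2 and 16.1 CPM in PAC-CM and at 22.7, 23.7 and 20.5 CPM with kinsenoside (log2 fold change 0.50, adjusted p = 0.162). Ddit4, the mTORC1 inhibitor REDD1, was at 8.20, 8.26 and 6.21 CPM and then at 5.83, 5.05 and 4.40 CPM (log2 fold change -0.53, adjusted p = 0.187). Neither had overlapping groups. Tbc1d7, a subunit of the TSC complex, had -0.33. Of 11 transcription factor genes 1, Foxo4, had an unadjusted p under 0.05 (log2 fold change 0.37, adjusted p = 0.133), or 9.09% against 14.9% of all genes tested. Foxo3 had -0.11 and Foxo1 -0.34, and the median was 0.0002.

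Of 18 genes of fusion with the lysosome, 14 estimates were above 0 (77.8%, against 48.9% of all genes tested), with a median of 0.08. An unadjusted p under 0.05 was reached by 3, all higher (16.7%, against 6.74% of all genes tested). They were Snap29, a SNARE of the fusion step (log2 fold change 0.33, adjusted p = 0.129), and the HOPS tethering subunits Vps33a and Vps41 (0.17 and 0.19). Of 17 other genes of selective autophagy 1, the ubiquitin-binding adaptor Tollip, had an unadjusted p under 0.05 (0.19, adjusted p = 0.274), or 5.88% against 14.9%. Sec62 had -0.09 and Ccpg1 0.15, and the median was 0.042. Of 29 lysosome genes under TFEB, 21 estimates were above 0 (72.4%, against 48.9% of all genes tested), with a median of 0.10. An unadjusted p under 0.05 was reached by 6 on the higher side (20.7%, against 6.74%) and 2 on the lower (6.90%, against 8.19%). These shares were not tested. The smallest p belonged to 3 subunits of the vacuolar proton pump. Atp6v1b2 was at 594 ± 25.6 and 683 ± 27.5 CPM, Atp6v1a at 751 ± 26.1 and 860.4 ± 34.8 CPM, and Atp6v0d2 at 301 ± 25.6 and 373 ± 38.8 CPM in PAC-CM and kinsenoside (SD, n = 3 per group). Their log2 fold changes were 0.25, 0.24 and 0.35, at adjusted p between 0.129 and 0.138. DESeq2 called these 3, Snap29, Foxo4 and Rragd, with adjusted p between 0.0314 and 0.0395, where it called 3.60% of all genes to which it gave an adjusted p.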

How the data were processed

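RNA-seq of polyadenylated RNA gave 6 libraries, and the authors deposited 1 table of raw gene counts, which was used as deposited. Per the submitters' processing notes the tools were bcl2fastq 2.20, FastQC 0.11.2, STAR, StringTie 1.3.1c and DESeq2 1.16.1, with GRCm38. The step that made the counts and its use of strand are not given in the sources used here. Genes passing edgeR's filterByExpr (13901) were scaled by TMM and tested with edgeR 4.0.16 (R 4.3.3) by robust quasi-likelihood fits, two-sided, with Benjamini-Hochberg adjustment over all of them and a threshold of 0.05. The SE is the absolute value of the estimate divided by the square root of its quasi-likelihood F statistic. Unless stated otherwise CPM is the count divided by the library total, per 1e6, and log2 CPM used a prior count of 2. Lengths and positions came from GENCODE M21 (GRCm38), with overlapping exons merged. On data simulated for this comparison over 13901 genes, the test found 22 of 67 genes set to a 1.5-fold change. It found 45 of 67 set to 2-fold and 62 of 66 set to 4-fold. The changed genes were drawn from all genes tested, and no change below 1.5-fold was simulated. Recovery at the size of the members' estimates, log2 fold changes from -0.35 to 0.30, was therefore not measured.

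Every library was grouped by its treatment label. Values in every library are given for members with an adjusted or unadjusted p under 0.05, for those whose groups did not overlap and for the most abundant of each step; from each further list the called genes, or otherwise the 3 with the smallest p, are named. Atg9a, Vmp1, the WIPI and the ATG2 genes were placed with nucleation and membrane supply, and Bnip3l with cargo receptors. Members and lists were chosen with earlier results of these data known. Alternatives were other scalings and filters, non-robust estimates, a replicate block, each library left out, DESeq2 1.42.0 and limma-voom (limma 3.58.1). At this depth 3 counts correspond to at most 0.0729 CPM, which does not measure counting error. Atg16l2, the least abundant member, had between 151 and 182 counts per library. Exons of 14 of the 39 members share bases with another gene, 6 of them with one at 1 CPM or more.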

Additional observations from a re-analysis of the deposited data

How the results depend on the processing

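Under 15 alternatives 28 of the 39 members kept the sign of their estimate, and 28 of 585 values reversed. The count of genes called, 71, became 36 with non-robust estimates, 490 with DESeq2, 39 with limma-voom and 13 to 98 over fits that each dropped 1 library, the lowest when PAC-CM replicate 1 and the highest when kinsenoside replicate 1 was dropped. Same-numbered libraries did not deviate together (correlations of 0.0087, -0.10 and 0.13), and with the replicate number as a block 42 genes were called, with 0 members among them. DESeq2 called 1 member, and it called 1 gene of the mTORC1 and AMPK list, 1 transcription factor, 1 fusion gene and 3 lysosome genes; the causes were not tested. With 1 library left out 0 members were called. The median over all members was 0.067 with upper quartile scaling, 0.041 with library totals alone and 0.066 to 0.11 with 1 library left out. Library totals alone gave medians of 0.058 for initiation, -0.020 for nucleation and membrane supply, 0.0017 for conjugation and 0.12 for LC3 and GABARAP, and leaving out 1 library gave 0.016 to 0.16, 0.0005 to 0.050, 0.014 to 0.13 and 0.10 to 0.20. Estimates that reversed with library totals alone were Becn1 at -0.026, Atg2a at -0.024, Atg2b at -0.017 and Atg4a at -0.044. Atg4a was also at -0.018 with upper quartile scaling and -0.0037 with no filter, and Atg4c was at 0.00067 with RLE size factors and 0.00060 with DESeq2. With 1 library left out the ranges were -0.086 to 0.045 for Ulk2, -0.17 to 0.016 for Atg101, -0.0063 to 0.17 for Rb1cc1, -0.015 to 0.081 for Becn1, -0.016 to 0.13 for Wipi1, -0.079 to 0.11 for Atg2a, -0.031 to 0.082 for Atg2b, -0.035 to 0.034 for Atg4a, -0.065 to 0.042 for Atg4c, -0.017 to 0.17 for Atg7 and -0.38 to 0.19 for Gabarapl1. The TMM-scaled count of groups that do not overlap was chosen after seeing the data. With 3 libraries a group, an exact permutation test of 1 gene cannot go below p = 0.1.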
